A study of Mus musculus with 24 samples.

Results

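A distal stretch of 8.4 Mb on mouse chromosome 4 was followed gene by gene in embryonic stem cells that each lacked 1 accessory subunit of an ISWI chromatin remodeler. Its members were the genes whose mm10 start lies from 139600000 to 148000000 on chromosome 4 and that had 10 or more counts in at least 2 of 24 libraries. These were 81 of the 24594 genes in the counts table, and 48 further genes of the stretch had fewer counts. The stretch was chosen by the fold changes of its genes in the WstfΔ line against wild type (WT), so the WstfΔ values are given as a description, with no p-value, and nothing is inferred from the counts of WstfΔ calls. The other 5 lines and the WT batches were tested, although the WT libraries of the WstfΔ batch were part of that choice.

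All cells were 129S6/SvEvTac mouse embryonic stem cells, untreated and grown in serum with LIF. Each deletion was made with CRISPR–Cas9 and each line is a single clone: Rsf1Δ, Tip5Δ (Baz2a), Cecr2Δ, Acf1Δ (Baz1a), WstfΔ (Baz1b) and BptfΔ. RNA-seq libraries came in 5 batches with WT libraries of their own. Batch A held Rsf1Δ, WstfΔ and WT, batch B Tip5Δ and WT, batch C BptfΔ and WT, and batch E Acf1Δ and WT, with 2 libraries per genotype, and batch D held 3 libraries labelled Cecr2Δ and 3 of WT. The study's methods call the libraries of a condition independent replicates, but the labels do not say whether they came from separate cultures, so the p-values measure the spread between libraries of a clone.

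Library totals ran from 13.4 to 36.7 M counts, with the WstfΔ libraries the shallowest, and the 3 counts that a 0 allows correspond to 0.0837 to 0.2195 normalized CPM (read counts scaled to library size and TMM factor), counting error only. The targeted transcript had a log2 fold change of -2.26 (Rsf1), -1.72 (Baz1a), -1.97 (Bptf) and -2.40 (Baz1b) in its own line. Targeted transcripts moved in other lines too. Baz1a was at -1.74 in BptfΔ, -0.83 in WstfΔ and -0.64 in Rsf1Δ, and Cecr2 at -1.56 in BptfΔ. The largest positive value was that of Baz2a in WstfΔ (0.56). Baz2a in Tip5Δ was at -0.26 ± 0.09, adjusted p = 0.0533 (here and below log2 fold change ± SE over the libraries given above, with edgeR's adjusted p). Cecr2 was not reduced under the label Cecr2Δ but had a positive value (0.37 ± 0.07, adjusted p = 0.000154), so that group is named by its label throughout. The study reports that western blots detected none of the deleted proteins in their lines, and that clones were also checked by DNA sequencing. A transcript level does not measure either. The 6 stem cell markers Pou5f1, Sox2, Nanog, Klf4, Esrrb and Zfp42 were above 1 normalized CPM in every group. Batch C stood apart, since Rmrp, Rpph1 and Terc, RNAs without a poly(A) tail, summed to 3955 to 5535 normalized CPM in its libraries and to at most 5.79 in the others.

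ISWI remodelers slide and space nucleosomes, and their accessory subunits direct the ATPase to its targets. Toward its far end, before Miip, the stretch holds a cluster of genes for C2H2 zinc finger proteins of the KRAB type. Such proteins bind transposable elements and recruit TRIM28 and the histone methyltransferase SETDB1 to silence them. This cluster expanded recently in the mouse, and many of its genes are near copies. The stretch also holds PRAME-like genes, best known from germ cells and early embryos, and peptidylarginine deiminases (Padi genes), which convert arginine to citrulline in histones and other proteins.

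Of the 81 members, 79 were tested among 15682 genes, while Gm13029 and Agmat had too few counts. By symbol 14 tested members are zinc finger genes of the cluster, from Zfp990 (chr4:145510759-145538251) to Zfp933 (chr4:147822986-147849126), and 13 of them hold C2H2 repeats in their longest reading stretch. Gm13212, which lies among them and also holds such repeats, is not counted in the group because of its symbol. Over the 11 WT libraries 19 members had a mean below 1 normalized CPM. Per kilobase of gene model Rcc2, needed for mitosis, was the most abundant member at 197 normalized CPM per kb. Among the zinc finger genes Zfp990 (82.5 normalized CPM per kb) and Zfp979 (53.2) were highest and Zfp987 (0.520) and Znf41-ps (0.979) lowest.

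Promoters of the zinc finger genes show how alike the copies are. RefSeq (GRCm38.p6) held 14 promoters of 300 bases for 11 of the 14 genes. Identity to the Rex2 promoter was 99.7% for Zfp600, 96.7% for Zfp979, 78.0% for Zfp981 and 56.7% for Zfp933, and the best promoters of Zfp980, Zfp982, Zfp985, Zfp987, Zfp534 and Zfp984 lay between 73.7% and 90.3%. The 5 printed here are Rex2, its nearest copies Zfp600 and Zfp979, the more distant Zfp981, which changed most in BptfΔ, and Zfp933, the gene whose best promoter is least similar to that of Rex2. Besides their best promoters Zfp600 has another of 55.0% identity and Zfp982 has others of 55.3% and 56.7%. Capitals mark the letters ATTGGGCGG.

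Rex2 (chr4:147021600-147021899, plus strand): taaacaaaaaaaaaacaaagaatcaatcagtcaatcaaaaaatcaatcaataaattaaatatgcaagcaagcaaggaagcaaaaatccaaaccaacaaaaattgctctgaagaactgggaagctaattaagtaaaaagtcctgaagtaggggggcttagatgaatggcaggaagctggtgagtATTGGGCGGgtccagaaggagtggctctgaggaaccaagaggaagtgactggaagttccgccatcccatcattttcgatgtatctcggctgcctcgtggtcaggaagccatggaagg
Zfp600 (chr4:146156577-146156876, plus strand): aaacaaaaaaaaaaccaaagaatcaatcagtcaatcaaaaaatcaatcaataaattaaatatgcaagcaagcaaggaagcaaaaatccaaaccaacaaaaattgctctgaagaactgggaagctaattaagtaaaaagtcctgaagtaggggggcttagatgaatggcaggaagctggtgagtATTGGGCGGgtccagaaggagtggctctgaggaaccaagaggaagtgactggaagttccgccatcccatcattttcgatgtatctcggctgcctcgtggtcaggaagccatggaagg
Zfp979 (chr4:147642459-147642758, minus strand): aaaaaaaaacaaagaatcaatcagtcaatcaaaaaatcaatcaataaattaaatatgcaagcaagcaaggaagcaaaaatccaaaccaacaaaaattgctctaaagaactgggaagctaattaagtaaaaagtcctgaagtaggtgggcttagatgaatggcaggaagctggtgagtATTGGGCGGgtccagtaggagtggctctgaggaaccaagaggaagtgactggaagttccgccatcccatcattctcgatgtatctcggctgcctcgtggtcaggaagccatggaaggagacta
Zfp981 (chr4:146514670-146514969, plus strand): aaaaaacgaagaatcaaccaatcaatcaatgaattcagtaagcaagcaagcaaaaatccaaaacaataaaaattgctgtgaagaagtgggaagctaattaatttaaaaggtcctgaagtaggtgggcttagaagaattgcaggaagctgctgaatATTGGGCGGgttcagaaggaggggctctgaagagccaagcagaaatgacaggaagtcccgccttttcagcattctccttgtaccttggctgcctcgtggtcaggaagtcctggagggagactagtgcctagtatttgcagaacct
Zfp933 (chr4:147848369-147848668, minus strand): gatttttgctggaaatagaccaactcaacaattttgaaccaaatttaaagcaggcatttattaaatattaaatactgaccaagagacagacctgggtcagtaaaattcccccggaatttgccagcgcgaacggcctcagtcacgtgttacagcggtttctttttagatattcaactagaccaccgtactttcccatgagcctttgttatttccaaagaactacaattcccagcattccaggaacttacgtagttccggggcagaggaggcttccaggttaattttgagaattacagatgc

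The letters ATTGGGCGG were searched on both strands and join a reversed CCAAT box (ATTGG) to a GC box (GGGCGG), which overlap in it. They stood in 8 of the 14 promoters, against 84 of all 32851 promoters (0.256%) and 5 of 351 promoters of Zfp genes elsewhere (1.425%). The letters were taken as a shared core of these same promoters, many of which are near copies of each other. Their excess there is therefore a description and no test. GGGCGG alone was in 9 of the 14 and in 35.658% of all, and ATTGG alone in 11 of the 14 and in 37.408% of all. A match describes letters in a window and not a binding site.

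The likeness also limits the counts. Of the 50-base words in the transcripts, 89.07% of those of Rex2 occurred in another gene, mostly Zfp600, and the share was 89.0% for Zfp987, 81.24% for Zfp600, 71.26% for Zfp980, 68.44% for Zfp534, 56.77% for Gm13212 and 54.47% for Zfp984. It was 42.98% for Zfp992, 40.02% for Zfp981 and 29.08% or less for Zfp990, Zfp979, Zfp985, Zfp982 and Zfp933. Counts of the first set could be split between copies, so their single values are uncertain. This applies in part to Zfp992 and Zfp981 too. The same holds for Rsc1a1, which lies wholly within Ddi2, for Aldh4a1, which shares 30.03% of its words with Gm21969, and for Pramel31 (38.63% shared). It also holds for pairs whose spans overlap, Igsf21 and Gm13029, Padi2 and Gm13031, Tmem82 and AI507597, and Casp9 and Cela2a. Further such pairs are Tmem51 and Tmem51os1, Vps13d and Dhrs3, and Zbtb17 and Spen, the last with 53 bases in common.

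**Figure D1:**
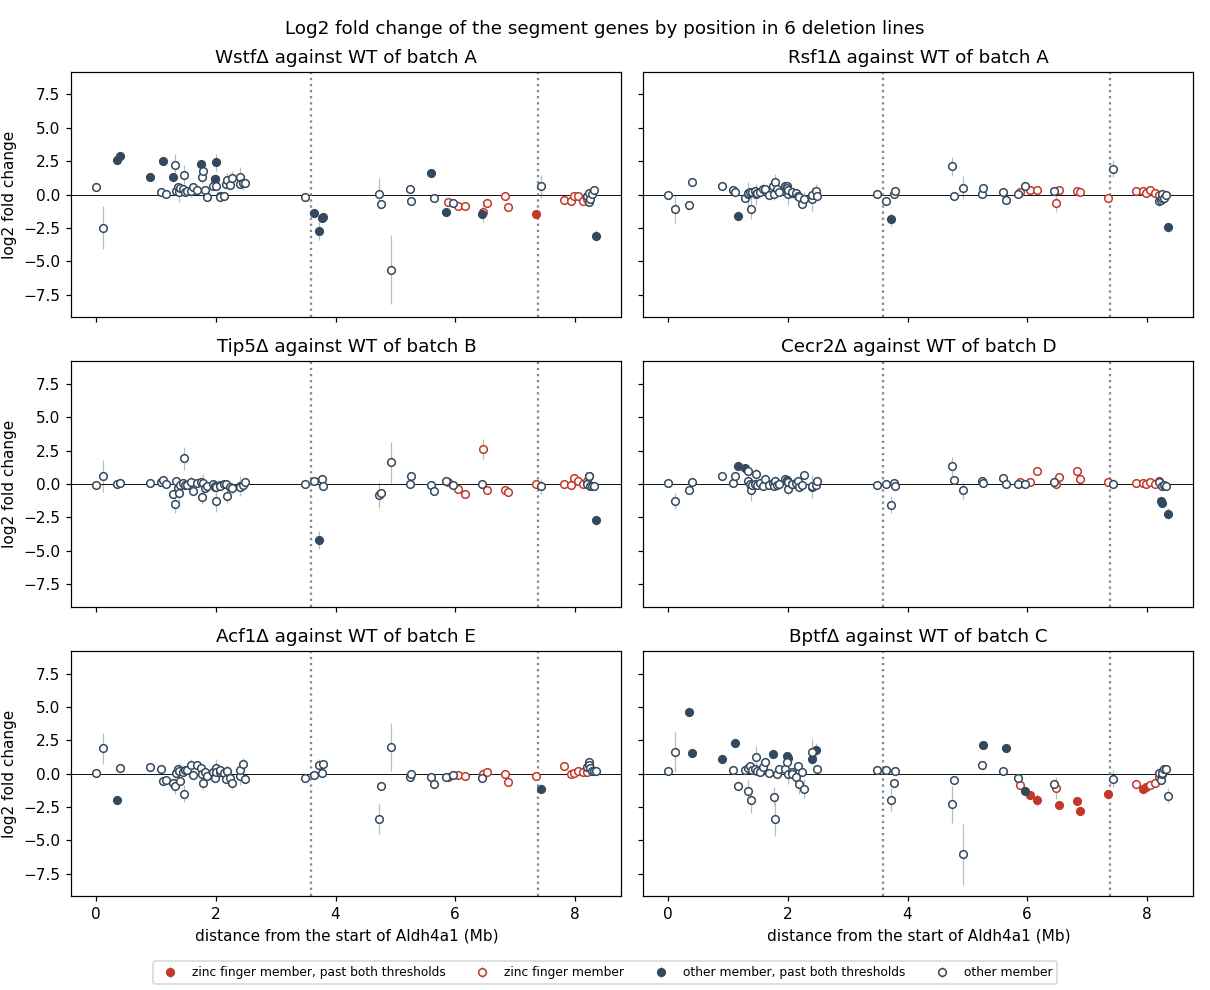
Log2 fold change of each line against WT of its batch (y axis) for 79 members by distance from the start of Aldh4a1 in Mb (x axis), with a panel per line. Bars are SE, filled points have an adjusted p under 0.01 and a log2 fold change beyond 1 in size, red points are zinc finger genes and dotted lines mark Pdpn and Rex2; in BptfΔ all 14 red points lie below 0.

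In WstfΔ the genes before Pdpn were mostly above WT and those from Pdpn to Rex2 mostly below. Of 43 tested members before Pdpn 37 had a positive log2 fold change (median 0.65), and of 22 from Pdpn to Rex2 19 had a negative one (median -0.87). The 14 members after Rex2 had a median of -0.23, and all genes tested had a median of -0.03. A member is called when its adjusted p is under 0.01 and its fold change over 2. By this rule 10 members were higher and 8 lower in WstfΔ, where 3.87% and 6.57% of all genes tested were, and since these values chose the stretch the counts are no test of it.

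Igsf21 (chr4:140026852-140246983), a synaptic adhesion protein, was at 7.74 and 8.57 normalized CPM in WT of batch A and at 56.9 and 64.5 in WstfΔ, a log2 fold change of 2.90. Klhdc7a, a gene with kelch repeats, was at 2.11 and 1.85 in WT and 11.7 and 11.9 in WstfΔ (2.56). For both genes the WstfΔ libraries lay above all 11 WT libraries. Padi4, the deiminase known from neutrophil nuclei, had a log2 fold change of 2.50, Fam131c 2.33, Arhgef10l 1.33, Padi2 1.33 and the noncoding AI507597 1.18. Against all 11 WT libraries, without the batch term, Igsf21 was at 1.89, Klhdc7a at 1.53, Padi4 at 1.08 and Fam131c at 1.62, and Padi2 (0.98), Arhgef10l (0.86) and AI507597 (0.92) came under the fold minimum. Casp9, the initiator caspase of the mitochondrial death pathway, was at 15.96 and 14.9 in WT and 26.6 and 26.2 in WstfΔ (0.78), without overlap but under the fold minimum. Pax7, Spen, Rsc1a1, Prdm2, Dnajc16 and Ddi2 were the 6 members before Pdpn with a negative value.

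Pdpn (chr4:143267409-143299564), the mucin-like glycoprotein podoplanin, was at 18.7 and 18.0 normalized CPM in WT of batch A and at 7.30 and 7.10 in WstfΔ (-1.35). The PRAME-like Pramel12 was at 38.1 and 37.2 in WT and 11.3 and 11.6 in WstfΔ (-1.71), and Pramel1 at 6.26 and 5.60 in WT and 2.02 and 1.39 in WstfΔ (-1.79). For Pdpn and Pramel12 the WstfΔ libraries were below all others of the series, whereas Pramel1 was as low in WT of batch C (1.79 and 2.16). Lrrc38, a potassium channel subunit, was at -2.74, where WstfΔ held 5 counts in all, Rex2 at -1.50, and the pseudogenes Gm13034 and Smarca5-ps at -1.44 and -1.33. Nppb (chr4:147985786-147987205), which encodes B-type natriuretic peptide, was at 3.15 and 3.14 in WT and 0.361 and 0.366 in WstfΔ (-3.10, and -2.05 without the batch term). Tnfrsf1b, the second receptor for tumour necrosis factor, was higher inside the lowered stretch, at 5.67 and 4.78 in WT and 16.5 and 15.3 in WstfΔ (1.60).

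**Figure D2:**
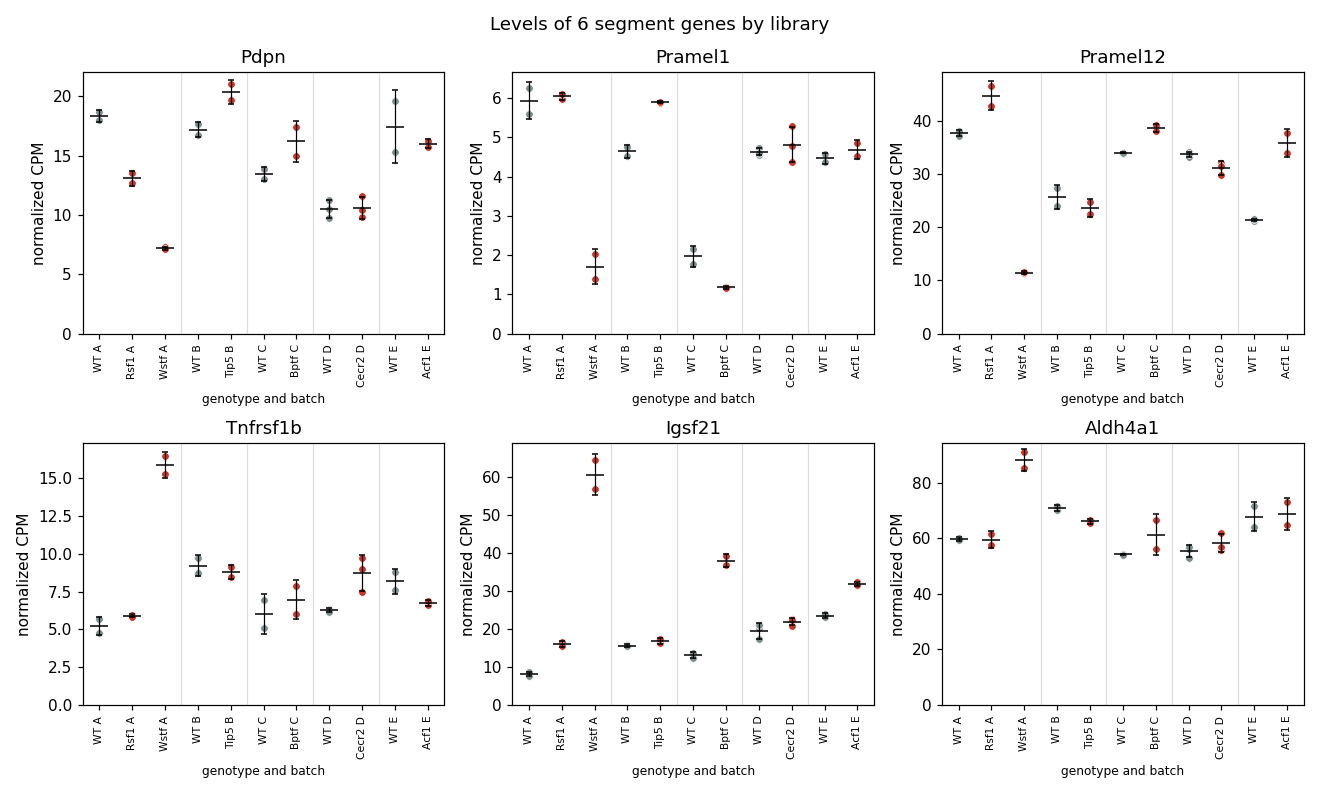
Normalized CPM (y axis) of Pdpn, Pramel1, Pramel12, Tnfrsf1b, Igsf21 and Aldh4a1 in 24 libraries by genotype and batch (x axis), grey for WT and red for deletion lines; points are libraries and bars mean ± SD. The 2 WstfΔ libraries are the lowest points for Pdpn and Pramel12 and the highest for Tnfrsf1b, Igsf21 and Aldh4a1.

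The WstfΔ libraries were also set against the Rsf1Δ libraries of the batch in place of WT. The median differences were 0.54 before Pdpn (38 members), -1.04 from Pdpn to Rex2 (19) and -0.24 after Rex2 (12). Over the 14065 genes tested there the median was -0.001. Before Pdpn both WstfΔ libraries exceeded all 11 WT libraries for 20 of 43 members, as they did for 11.7% of all genes tested. Both comparisons reuse the WstfΔ libraries that chose the stretch, so they restate that choice and are no test of it. At the near end the last genes outside, Emc1, Ubr4 and Iffo2, had WstfΔ log2 fold changes of 0.03, 0.24 and -0.03, and the first inside, Aldh4a1, Pax7 and Klhdc7a, 0.56, -2.49 and 2.56. Pax7 was at 0.239 and 0.215 normalized CPM in WT and 0.0722 and 0 in WstfΔ, near the limit of detection. At the far end the last inside, Plod1, 2510039O18Rik and Nppb, were at 0.04, 0.32 and -3.10, and Clcn6 and Agtrap outside at 0.11 and 0.82.

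In BptfΔ, a line of another batch with WT libraries of its own, the zinc finger genes were lower and a set of genes before Pdpn higher. Of 79 members 11 rose and 9 fell, against 5.25% and 8.59% of all genes tested. Before Pdpn 9 of 43 rose (median log2 fold change 0.31), from Pdpn to Rex2 2 of 22 rose and 7 fell (median -0.99), and after Rex2 2 of 14 fell (median -0.41). The median over all genes tested was 0.02. By adjusted p alone 23 members were higher and 16 lower, against 21.4% and 20.2% of all genes tested.

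All 14 zinc finger genes had a negative log2 fold change in BptfΔ (median -1.13), and 8 of them fell. Of 334 tested Zfp genes elsewhere 14 fell and 4 rose (median 0.08). Both BptfΔ libraries lay below all 11 WT libraries for 12 of the 14, as they did for 20.6% of all genes tested, a comparison that crosses from batch C to batches without the RNAs that lack a poly(A) tail. Among the 7 genes with 50% or less of their words shared 4 fell (median -1.02).

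Zfp981 (chr4:146502000-146539395) was at 41.4 and 43.95 normalized CPM in WT of batch C and at 6.35 and 5.72 in BptfΔ (-2.82 ± 0.11, adjusted p = 1.02e-17, edgeR quasi-likelihood test). Zfp600, whose promoter is nearly that of Rex2, was at 18.5 and 18.3 in WT and 3.83 and 3.24 in BptfΔ (-2.38 ± 0.15, adjusted p = 3.44e-13). Zfp992 was at 16.2 and 17.7 in WT and 4.37 and 3.76 in BptfΔ (-2.06 ± 0.15, adjusted p = 1.14e-11). For these 3 genes the BptfΔ libraries were below every other library of the series. Rex2 (chr4:146973610-147060799) was at 6.09 and 5.43 in WT and 2.04 and 1.91 in BptfΔ (-1.55 ± 0.33, adjusted p = 0.000275), also below all others, though WstfΔ came close at 2.60 and 2.63. Zfp980 (-1.58), Znf41-ps (-1.98), Zfp985 (-1.15) and Zfp979 (-1.02) fell as well.

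The most abundant gene of the group, Zfp990, was at 282 and 307 normalized CPM in WT of batch C and 168 and 153 in BptfΔ (-0.88 ± 0.08, adjusted p = 1.42e-09), under the fold minimum. Zfp979 was at 223 and 239 in WT and 117 and 109.9 in BptfΔ, below all WT libraries, and its log2 fold change came under 1 in size without BptfΔ replicate 2 (-0.98) or WT replicate 2 (-0.97). Zfp534, Zfp982 and Zfp984 were at -0.84, -0.81 and -0.73. Zfp933 was at 10.7 and 11.5 in WT and 9.82 and 8.32 in BptfΔ (-0.29 ± 0.14, adjusted p = 0.0876), which did not pass. Zfp987 was at 1.15 and 0.875 in WT and 0.359 and 0.578 in BptfΔ (-1.11 ± 0.82, adjusted p = 0.268), which did not pass either. Znf41-ps, a pseudogene, did not pass without BptfΔ replicate 1 (-1.64).

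**Figure D3:**
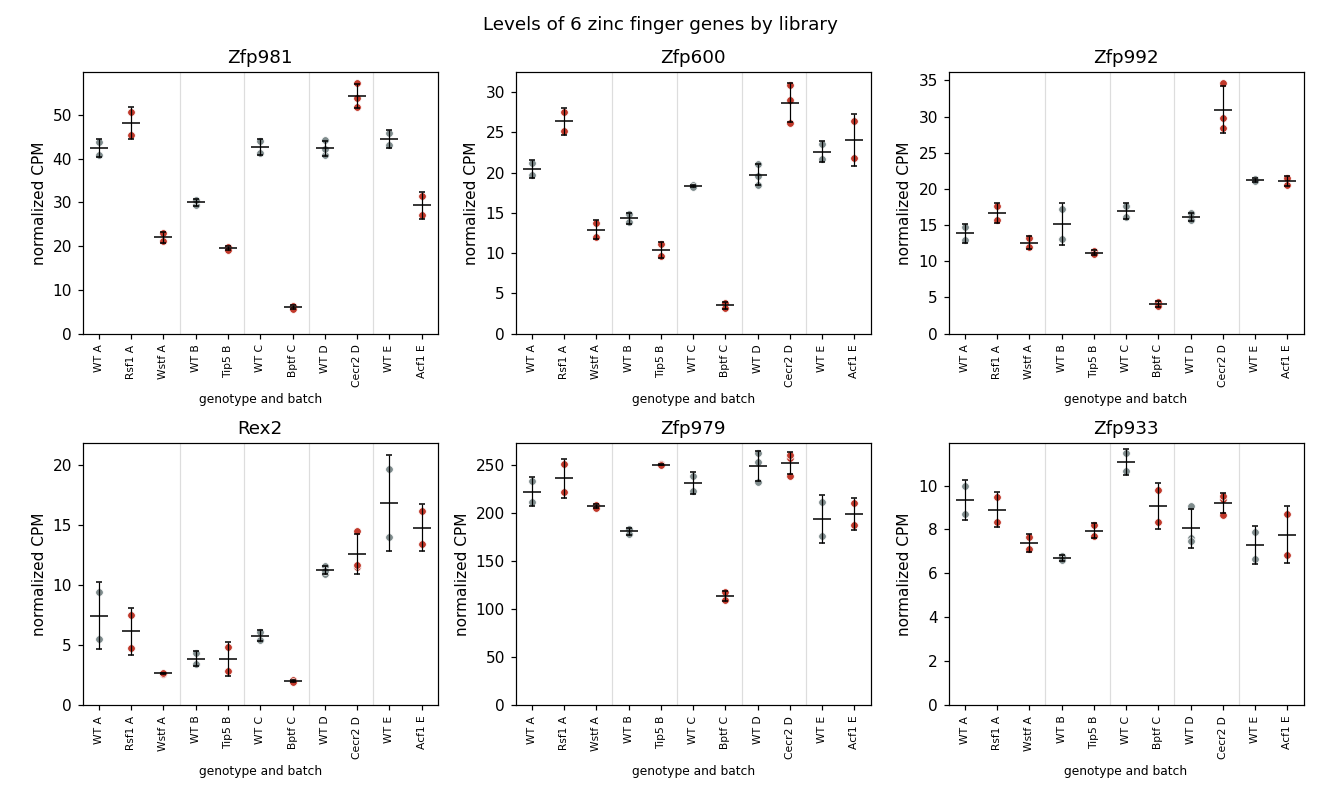
Normalized CPM (y axis) of Zfp981, Zfp600, Zfp992, Rex2, Zfp979 and Zfp933 in 24 libraries by genotype and batch (x axis), grey for WT and red for deletion lines; points are libraries and bars mean ± SD. The 2 BptfΔ libraries are the lowest points for Zfp981, Zfp600, Zfp992, Rex2 and Zfp979.

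Outside BptfΔ and WstfΔ edgeR called 0 of the 14 zinc finger genes in each line with batch in the model, and DESeq2 also 0. Without the batch term, against all 11 WT libraries, Zfp980 (-1.21, adjusted p = 0.00834) and Zfp981 (-1.05, adjusted p = 0.000157) were called lower in Tip5Δ. The share of all genes called was 5.91% in Rsf1Δ, 2.72% in Tip5Δ, 3.11% under the label Cecr2Δ and 4.45% in Acf1Δ. At an unadjusted p under 0.05 there were 8 of the 14 in Rsf1Δ (39.4% of all genes tested), 7 in Tip5Δ (28.2%), 5 under the label Cecr2Δ (38.9%) and 3 in Acf1Δ (49.9%). Zfp981 was at 29.4 and 30.5 normalized CPM in WT of batch B and 19.9 and 19.2 in Tip5Δ (-0.62 ± 0.09, adjusted p = 6.16e-06), and at 45.9 and 43.02 in WT of batch E and 31.5 and 27.1 in Acf1Δ (-0.60 ± 0.08, adjusted p = 1.19e-06), without overlap but under the fold minimum. Zfp992 was at 15.97, 16.7 and 15.6 in WT of batch D and at 28.4, 29.8 and 34.6 under the label Cecr2Δ (0.94 ± 0.09, adjusted p = 2.07e-09), again under it. The largest value of the group in Tip5Δ was that of Zfp987, at 0.307 and 0.192 in WT and 0.700 and 2.45 in Tip5Δ (2.65 ± 0.74, adjusted p = 0.0144), which did not pass. The WT libraries held 8 and 5 counts of it, and without the batch term it was at -0.01 (adjusted p = 0.996). In WstfΔ all 14 had negative values (median -0.55). Under the label Cecr2Δ all 14 had positive values (median 0.17), and in Rsf1Δ 11 of the 14 did (median 0.23). A shared sign of these near copies was thus not particular to BptfΔ.

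Other genes of the KRAB zinc finger pathway lie elsewhere in the genome. The 12 listed were the cofactor and chromatin genes Trim28, Setdb1, Atf7ip, Cbx1, Cbx3, Cbx5, Chd3, Smarcad1, Morc3 and Resf1 and the KRAB zinc finger genes Zfp809 and Zfp57. Of these 12 edgeR and DESeq2 each called 0 in every line. In BptfΔ edgeR called 5.25% of all genes tested higher and 8.59% lower. In Rsf1Δ, Tip5Δ, Acf1Δ and the label Cecr2Δ it called 2.72% to 5.91% in either direction. At an unadjusted p under 0.05 there were 4 to 8 of the 12 in a line. That threshold was passed by 57.6% of all genes tested in BptfΔ and 52.3% in WstfΔ. In BptfΔ their log2 fold changes ran from -0.42 to 0.67, and the corepressor Trim28 was at 0.07 ± 0.05, adjusted p = 0.284. By adjusted p under 0.01 alone 2 of the 12 were higher there (Chd3 0.67, Zfp57 0.40) and 3 lower (Cbx3 -0.42, Cbx1 -0.41, Resf1 -0.29). Over all genes tested 21.4% were higher and 20.2% lower by that measure. Trim28 was at 0.49 in Acf1Δ, 0.33 in Rsf1Δ and -0.20 in WstfΔ, under the fold minimum.

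Klhdc7a (chr4:139962173-139968026) had the largest increase of the stretch in BptfΔ. It was at 2.10 and 2.16 normalized CPM in WT of batch C and 52.2 and 53.7 in BptfΔ (4.63 ± 0.17, adjusted p = 5.71e-18). Padi4 was at 1.21 and 1.34 in WT and 6.47 and 6.13 in BptfΔ (2.30 ± 0.20, adjusted p = 3.43e-10). Dhrs3, which reduces retinaldehyde, was at 1.89 and 1.63 in WT and 7.42 and 7.80 in BptfΔ (2.10 ± 0.20, adjusted p = 1.62e-09). Tnfrsf8, the receptor CD30, was at 3.05 and 3.27 in WT and 11.7 and 12.7 in BptfΔ (1.95 ± 0.17, adjusted p = 3.24e-10). In these 4 genes the BptfΔ libraries exceeded every other library of the series. Dhrs3 lies within the span of Vps13d, a lipid transfer protein, which was at 0.66.

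Igsf21 (1.54), Fam131c (1.43), AI507597 (1.32), Plekhm2 (1.13), Tmem51 (1.06), Arhgef10l (1.06) and Tmem51os1 (1.78) also rose in BptfΔ, and Gm13212, whose counts could be split with Zfp984, fell (-1.30). Tmem51os1 did not pass without BptfΔ replicate 2 (1.11) or without WT replicate 1 (1.70) or 2 (1.85), and Arhgef10l came under the fold minimum without WT replicate 2 (0.95). Without the batch term Fam131c (0.76), AI507597 (0.64), Plekhm2 (0.84) and Tmem51 (0.69) were no longer called, nor were Zfp985 (-0.998) and Zfp979 (-0.95). Klhdc7a, Igsf21, Arhgef10l, Padi4, Fam131c and AI507597 were called higher and Rex2 lower in both BptfΔ and WstfΔ. Since WstfΔ values chose the stretch, and the overlap of these lines over all genes is not given here, the 7 are a description. Fam131c, AI507597 and Arhgef10l were not called in both lines without the batch term, which leaves at most 4 of the 7.

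**Figure D4:**
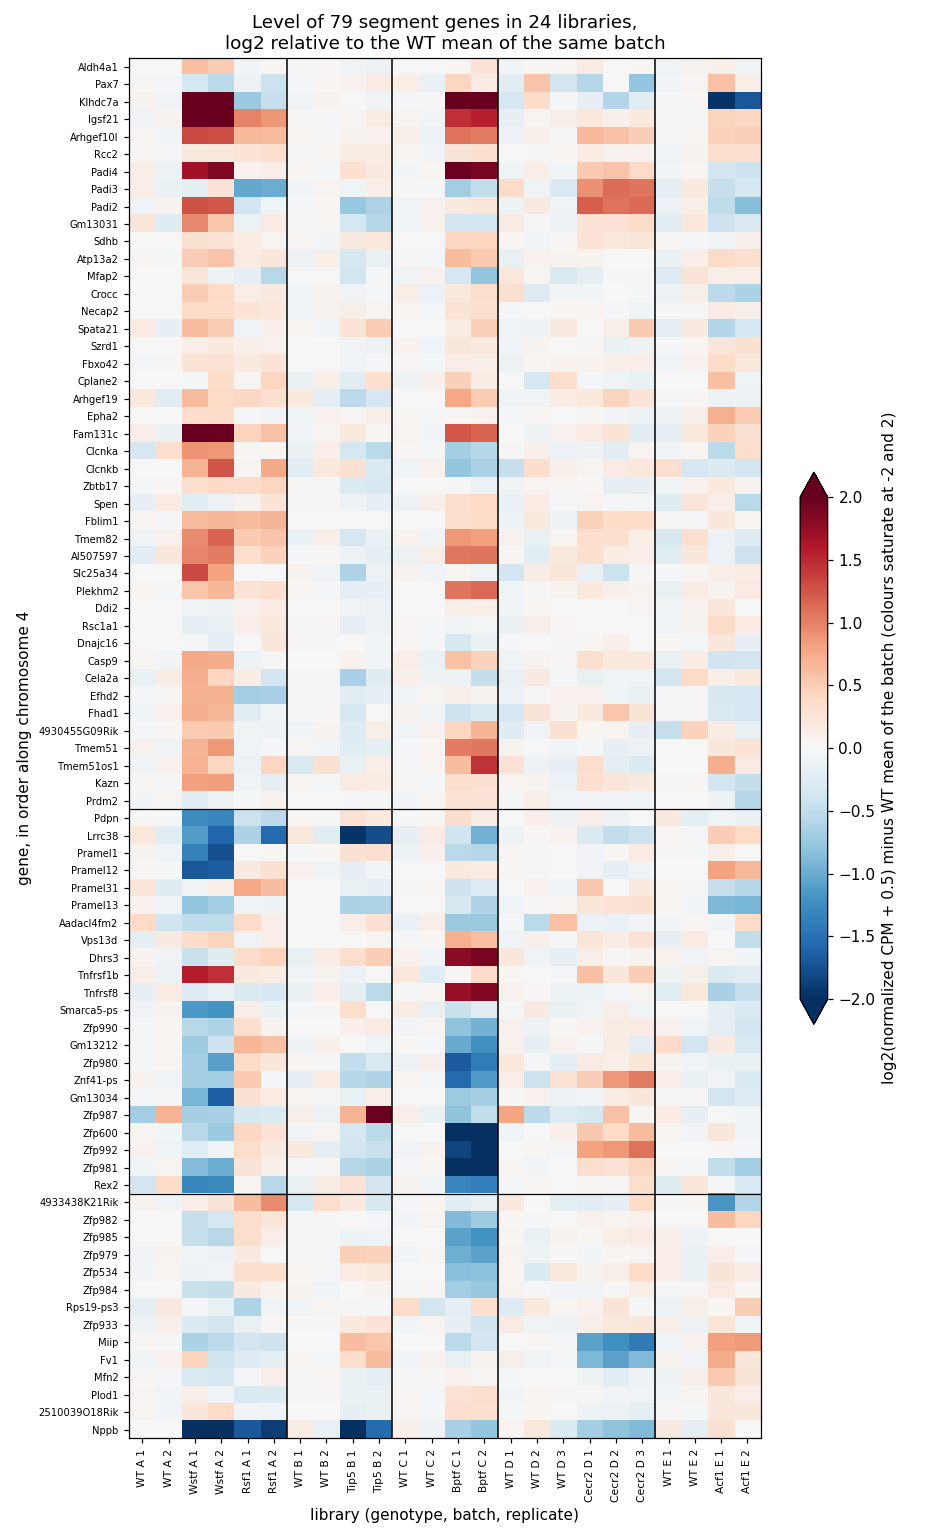
Level of 79 members (rows, in chromosome order) in 24 libraries (columns, by batch) as log2(normalized CPM + 0.5) minus the WT mean of the batch, red higher and blue lower, colours saturating at -2 and 2, with lines at Pdpn and Rex2. The zinc finger rows are blue in the 2 BptfΔ columns and Klhdc7a is red in the BptfΔ and WstfΔ columns.

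In Rsf1Δ, whose WT libraries are those of WstfΔ, 3 members fell, against 5.26% of all genes tested. Nppb was at 0.644 and 0.489 normalized CPM, against 3.15 and 3.14 in WT (-2.47 ± 0.32, adjusted p = 7.41e-07). Padi3, a deiminase of hair follicles, was at 0.515 and 0.529 against 1.76 and 1.38 (-1.58 ± 0.34, adjusted p = 0.000734). Neither gene overlapped between groups. Lrrc38 was at 0.601 and 0.0814 against 1.48 and 0.991 (-1.87 ± 0.51, adjusted p = 0.00641). It did not pass without Rsf1Δ replicate 2 (-1.04), which held 2 counts, without WT replicate 1 (-1.55) or with the replicate number as a block (-1.92). Padi3 did not pass without Rsf1Δ replicate 1 (-1.56) or 2 (-1.60) or WT replicate 1 (-1.39). Without the batch term none of the 3 was called, with Nppb at -1.42, Padi3 at -1.64 and Lrrc38 at -1.29 against all 11 WT libraries.

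In Tip5Δ 2 members fell, against 2.63% of all genes tested. Nppb was at 0.219 and 0.541 normalized CPM, against 2.87 and 2.23 in WT (-2.72 ± 0.35, adjusted p = 1.76e-06). Lrrc38 was at 0.0438 and 0.125 against 1.95 and 1.34 (-4.20 ± 0.64, adjusted p = 2.46e-05), without overlap. With 4 counts in Tip5Δ and 86 in WT, the ratio of Lrrc38 was 0.0518, with a 95% exact interval of 0.0138 to 0.137 for counting error only. Neither gene was called without the batch term, with Nppb at -1.98 (adjusted p = 0.117) and Lrrc38 at -3.22 (adjusted p = 0.0651).

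Under the label Cecr2Δ 2 members rose and 3 fell, against 0.784% and 2.33% of all genes tested. Padi2, a widely expressed deiminase, was at 11.2, 10.3 and 10.7 normalized CPM, against 4.24, 5.30 and 4.33 in WT of batch D (1.21 ± 0.11, adjusted p = 2.18e-09). Padi3 was at 2.10, 2.51 and 2.40 against 1.28, 0.813 and 0.628 (1.34 ± 0.21, adjusted p = 2e-05). Both genes were higher in all 3 libraries than in any WT library of the batch, but against all 11 WT libraries, without the batch term, neither was called (Padi2 0.52, adjusted p = 0.241, Padi3 0.51, adjusted p = 0.287). Miip, an inhibitor of cell migration, was at 14.04, 12.5 and 11.02 against 30.1, 30.9 and 29.3 (-1.27 ± 0.07, adjusted p = 2.24e-13). Its neighbour Fv1, a retrovirus restriction gene derived from a retroviral gag gene, was at 0.711, 0.584 and 0.725 against 1.96, 1.63 and 1.72 (-1.40 ± 0.23, adjusted p = 4.05e-05). Nppb was at 0.178, 0.117 and 0.0837 against 0.626, 0.748 and 0.397 (-2.23 ± 0.41, adjusted p = 0.000149), and these 3 genes did not overlap between groups either. From 12 counts against 57 the ratio of Nppb was 0.206, with a 95% exact interval of 0.101 to 0.388. Without the batch term in edgeR Nppb was at -3.57 (adjusted p = 0.00205) and still called.

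In Acf1Δ 2 members fell, against 3.32% of all genes tested. Klhdc7a was at 2.13 and 2.65 normalized CPM, against 9.58 and 9.85 in WT of batch E (-2.02 ± 0.17, adjusted p = 7.68e-10). The noncoding 4933438K21Rik was at 0.709 and 1.31 against 2.14 and 2.30 (-1.13 ± 0.35, adjusted p = 0.0099). It did not pass without Acf1Δ replicate 1 (-0.76) or without WT replicate 1 (-1.18) or 2 (-1.08), and not with DESeq2 (-1.14). Without the batch term neither gene was called, with Klhdc7a at -0.76 and 4933438K21Rik at 0.31. Miip, lower under the label Cecr2Δ, was at 48.9 and 49.8 against 25.9 and 29.1 (0.84 ± 0.08, adjusted p = 1.12e-08), higher without overlap but under the fold minimum.

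**Figure D5:**
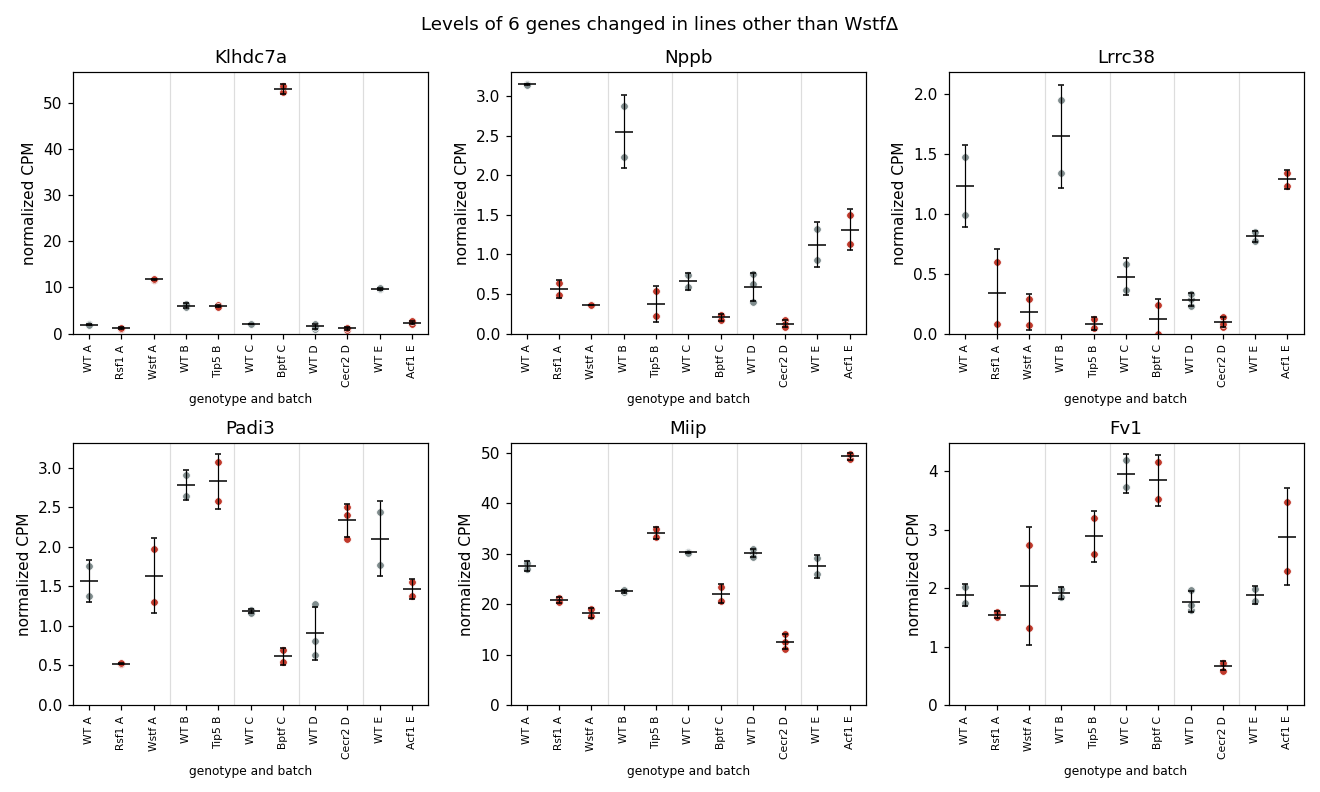
Normalized CPM (y axis) of Klhdc7a, Nppb, Lrrc38, Padi3, Miip and Fv1 in 24 libraries by genotype and batch (x axis), grey for WT and red for deletion lines; points are libraries and bars mean ± SD. Klhdc7a stands highest in BptfΔ, and Miip and Fv1 are lowest in the libraries labelled Cecr2Δ.

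Nppb was called lower in Rsf1Δ, Tip5Δ and the libraries labelled Cecr2Δ, and was at -1.66 ± 0.58, adjusted p = 0.0173 in BptfΔ and 0.21 ± 0.30, adjusted p = 0.601 in Acf1Δ. The 6 primitive endoderm markers Gata4, Gata6, Sox17, Foxa2, Dab2 and Pdgfra summed to 120.0 to 127.7 normalized CPM in Rsf1Δ and 118.9 to 122.3 in WstfΔ, against 298.3 to 307.2 in their WT libraries. The sums were 65.6 to 71.8 in Tip5Δ against 300.1 to 319.5, 24.02 to 28.51 under the label Cecr2Δ against 85.2 to 97.5, and 9.01 to 9.22 in BptfΔ against 134.6 to 142.1. In Acf1Δ they were 246.2 to 281.2 against 221.0 to 229.3, while Dab2 alone was lower there, at a mean of 68.8 against 85.7 (-0.32). All 6 markers exceeded 1 normalized CPM in at least 1 library of every group except BptfΔ, where 4 did, Gata6 and Dab2 among them at group means of 0.915 and 1.0. The 6 trophectoderm markers (Cdx2, Eomes, Tfap2c, Krt8, Krt18 and Elf5) summed to less than in WT in all 6 lines, among them 63.6 to 70.8 in BptfΔ against 173.2 to 175.5. Krt8 and Krt18 made up most of that sum in WT of batch A, at means of 181.8 and 193.3, and single markers went the other way, such as Tfap2c under the label Cecr2Δ (0.54), Cdx2 in Acf1Δ (1.18) and Eomes in WstfΔ (1.05). The part of these cells in the results was not tested, and in bulk RNA fewer cells of a type and less RNA per cell cannot be told apart.

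With batch in the model the 4 PRAME-like members were called in no line but WstfΔ, where Pramel1 and Pramel12 were lower. In the other 5 lines edgeR and DESeq2 called 0 of 4, with 1 to 3 at an unadjusted p under 0.05 in each, where 28.2% to 57.6% of all genes tested passed. Without the batch term Pramel1 was called lower in BptfΔ (-1.89, adjusted p = 0.000243), where the value with batch was -0.74 (adjusted p = 0.0184). Pramel13 was at 26.8 and 26.3 normalized CPM in Acf1Δ against 52.2 and 48.2 in WT (-0.92 ± 0.08, adjusted p = 7.01e-10), and at 27.98 and 28.4 in Tip5Δ against 43.4 and 44.3 (-0.64 ± 0.08, adjusted p = 7.95e-07). Pramel12 was at 37.7 and 33.9 in Acf1Δ against 21.2 and 21.5 (0.75 ± 0.08, adjusted p = 2.45e-08), so the 2 genes had opposite signs there. Pramel31 stayed below 1 normalized CPM throughout. Aadacl4fm2, of the arylacetamide deacetylase family, had 0 counts in both WstfΔ and both BptfΔ libraries, against 0.439 and 0.0431 normalized CPM in WT of batch A and 0.263 and 0.409 in WT of batch C.

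Epha2, an ephrin receptor, was at 331 and 289 normalized CPM in Acf1Δ against 187 and 218 in WT (0.61 ± 0.07, adjusted p = 1.99e-07) and within -0.06 to 0.09 on the log2 scale in the other tested lines. Sdhb, of respiratory complex II, was at 0.43 in BptfΔ, and Mfn2, which fuses mitochondria, at 0.40 in Acf1Δ. Casp9 was at 0.53 in BptfΔ and -0.40 in Acf1Δ. The genes of the histone methyltransferase Prdm2 and the transcriptional regulator Spen lay between -0.32 and 0.37 in all 6 lines. Pdpn was at -0.49 in Rsf1Δ and between -0.12 and 0.26 in the other tested lines, and the largest Tnfrsf1b value in those 5 lines was 0.47, under the label Cecr2Δ.

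WT cells of the 5 batches also differed in these genes. With a fold of over 2 between the highest and lowest batch and an adjusted p under 0.01, 22 of 79 members differed, against 24% of all genes tested. Klhdc7a had WT means of 1.98, 6.10, 2.13, 1.57 and 9.71 normalized CPM in batches A to E, a fitted range of 6.23-fold (adjusted p = 1.14e-13). Nppb ran from 0.590 in batch D to 3.15 in batch A (adjusted p = 1.12e-08), and Rex2 from 3.85 in batch B to 16.8 in batch E (adjusted p = 1.58e-08). Igsf21 was lowest in batch A (8.15), the batch of WstfΔ, and highest in batch E (23.5, adjusted p = 5.86e-12). WT of batch A is also the control of the WstfΔ contrast that chose the stretch. Batch comparisons that include it, and the count of 22, therefore draw in part on values used in that choice. All 3 tested Padi genes differed between WT batches, and so did Zfp980, Znf41-ps, Zfp987 and Rex2 of the zinc finger group.

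Among the 79 tested members 27 were called in at least 1 of the 5 lines other than WstfΔ, against 19.8% of all genes tested. A further 8 were called in WstfΔ alone (3.19% of all genes), the line that chose the stretch, and 44 in none (77.0%). In those 5 lines Nppb was called lower in 3, Lrrc38 lower in 2, and Klhdc7a higher in BptfΔ and lower in Acf1Δ. Padi3 was lower in Rsf1Δ and higher under the label Cecr2Δ.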

How the data were processed

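RNA of 24 embryonic stem cell libraries was counted per gene. The deposited values are raw read counts per gene: the authors aligned reads to mm10 with HISAT2 through QuasR and counted them over UCSC knownGene models, and the submitters' processing notes name bcl2fastq 2.17. The counting options and strand setting were not given in the sources used here. Libraries were grouped by genotype and batch as the titles and genotype labels give them. Batch C holds RNAs without a poly(A) tail.

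Genes were filtered with filterByExpr by genotype, scaled with TMM (normalized CPM) and fitted in edgeR 4.0.16 (R 4.3.3), legacy quasi-likelihood form, with batch and genotype over all 24 libraries and Benjamini-Hochberg adjustment over 15682 genes. The calling thresholds were an adjusted p of 0.01 and a log2 fold change of 1. WT batches were compared through the 4 batch terms together. The fit was tested on simulated data with known changes. Alternatives used DESeq2 1.42.0, other scalings and filters, no batch term, the line with its own WT only, a replicate block and each library left out. Same-numbered libraries did not deviate together (r from -0.157 to 0.049), so the main fit holds no block.

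The members and lists were chosen with earlier results of these data known. Named genes were the segment ends, per line up to 3 members with the largest called increase and 3 with the largest decrease whose libraries lay beyond all WT libraries of the batch (8 each for WstfΔ), members with fixed roles, and the zinc finger, PRAME-like, Aadacl and Padi groups. Other genes named as called were chosen after their values were seen. The zinc finger group was taken by symbol, because no gene descriptions were used here. Sequence identity came from Biopython 1.88 alignments of RefSeq promoters. 24570 of 24594 gene IDs matched RefSeq. A gene beside the far end of the segment is not reported here.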

Additional observations from a re-analysis of the deposited data

Results flagged for a closer look

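Klhdc7a rose in BptfΔ (log2 fold change 4.63) and fell in Acf1Δ (-2.02). The difference between these responses was 6.65 ± 0.24 (SE) on the log2 scale, with an adjusted p of 9.90e-18 by edgeR's quasi-likelihood test of the difference of the 2 contrasts, and all 4 libraries of these lines lay beyond the WT libraries of their batches. The WT level of the gene was 2.13 normalized CPM in batch C and 9.71 in batch E, and without the batch term the Acf1Δ value was not called (-0.76).

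Padi3 rose in the libraries labelled Cecr2Δ (1.34) and fell in Rsf1Δ (-1.58). The difference was 2.92 ± 0.40 (SE), with an adjusted p of 4.31e-06 by the same test. Taken alone, the Rsf1Δ value did not pass without either Rsf1Δ library, without WT replicate 1 of batch A or without the batch term (-1.64), and the value under the label Cecr2Δ did not pass without the batch term (0.51).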

How the results depend on the processing

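The called members numbered 3 in Rsf1Δ, 2 in Tip5Δ, 5 under the label Cecr2Δ, 2 in Acf1Δ, 20 in BptfΔ and 18 in WstfΔ. With no fold minimum these were 15, 8, 16, 25, 39 and 44. At that threshold, of all 15682 genes tested, 1168 were higher and 2057 lower in Rsf1Δ, and 446 and 977 in Tip5Δ. Under the label Cecr2Δ these were 1493 and 1385, in Acf1Δ 2370 and 2615. In BptfΔ they were 3350 and 3173, and in WstfΔ 2567 and 2877. Without the batch term, which sets a line against all 11 WT libraries, Rsf1Δ and Acf1Δ had 0, Tip5Δ 2, the label Cecr2Δ 4, BptfΔ 18 and WstfΔ 9. The 2 in Tip5Δ were Zfp980 and Zfp981 in place of Nppb and Lrrc38, and under the label Cecr2Δ Padi2 and Padi3 were lost and Lrrc38 was gained (-3.10). The zinc finger genes were also examined this way after seeing the data, because batch C holds RNAs without a poly(A) tail: 6 then fell in BptfΔ and 13 of 14 were negative. In Acf1Δ the count was 1 with DESeq2, with library size only and with the filter of 10 counts in 2 libraries, and 1 to 2 when a library was left out. 4933438K21Rik in Acf1Δ reversed without the batch term (0.31). Of 32 results for a gene in a line 14 passed in every alternative run, and 34 of 426 values under an alternative kept the direction but not the call. The causes were not tested.

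With the replicate number as a block the counts were 2 in Rsf1Δ, 2 in Tip5Δ, 5 under the label Cecr2Δ, 1 in Acf1Δ, 20 in BptfΔ and 18 in WstfΔ. In batch E same-numbered libraries deviated in opposite directions (r = -0.157), and the crossed replicate block, added after seeing the data, gave 1 in Acf1Δ. A block for the WT batches was not run, because batch could not be estimated beside it. Depth limits the 19 members below 1 normalized CPM in WT.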
